A study of Mus musculus with 18 samples.

Results

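The Ly6 genes encode small cell-surface proteins, and 6 of them, Ly6a, Ly6c1, Ly6d, Ly6e, Ly6f and Ly6i, were followed here on arrays of liver RNA from control and hypothyroid mouse pups together with the bright probe A_51_P197528. The members were selected on the readout described below, because that probe was lower in hypothyroid liver, so every difference between the groups is given for them as a description with no test. Each of the 6 genes was matched to 1 probe by its accession, which makes 7 probes of the 41174 on the array, and all 7 were among the 32053 probes bright enough to be tested, Ly6f through the control arrays alone. The files list A_51_P197528 under a database entry that the gene table used here does not pair with a symbol. It is therefore called by its probe name, and whether it reads a Ly6 transcript was not tested.

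Ly6 proteins share a compact fold held together by disulfide bonds, and most are attached to the outer face of the membrane by a glycosylphosphatidylinositol (GPI) anchor. They are best known as markers of blood cell lineages. Ly6a, also called Sca-1, marks haematopoietic stem cells and many endothelial cells, Ly6c1 encodes a Ly6C antigen of monocytes and endothelium, and several members are induced by interferon. Thyroid hormone acts in liver mainly through nuclear receptors that change the transcription of genes of lipid and hormone metabolism.

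Liver RNA came from 5 control and 5 hypothyroid male C57BL/6 pups at post natal day (PND) 15, with 1 array for each animal. Dams of the hypothyroid group were given 0.05% methimazole (MMI), which blocks the synthesis of thyroid hormone, and 1% perchlorate, which blocks iodide uptake, in sugar water from PND 12, in the cages that held their litters. Control dams received sugar water without these agents, and per the study's methods 1 male pup was taken from each litter. By the same methods, pups of both groups were injected with phosphate buffered saline (PBS) on PND 15, hours before sacrifice. Each liver RNA was hybridised against 1 purchased universal mouse reference RNA, a commercial pool, and each value below is log2 of liver over reference. In whole liver, fewer cells of a type and less RNA in each cell cannot be told apart.

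The arrays lay on 6 slides, of which 4 held both groups, and between 75.7% and 85.4% of the probes of an array were above its background limit. On slide 141 (control 832 and hypothyroid 576) the ratios ran opposite to the other slides with the dyes as labelled, with correlations across probes of -0.97 and -0.98, and its channels were exchanged. The direction on that slide is not settled by the labels, so the main results are also given under the labelled dyes and with that slide left out. Control 616 stood apart, with a correlation of 0.88 with the other arrays against at least 0.97 for the remaining ones, and a narrower spread of ratios (SD 0.73 against 1.01 to 1.10). The hepatocyte markers Alb, at a mean log2 ratio of 3.09, and Fgb, at 4.44, were far above the reference, as was each of the 8 hepatocyte genes tested.

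All 6 genes lie on chromosome 15 in the mouse assembly GRCm38.p6, in the order Ly6d, Ly6e, Ly6i, Ly6a, Ly6c1 and Ly6f. Ly6e, Ly6i, Ly6a and Ly6c1 are direct neighbours among the protein-coding genes, 7 other genes lie between Ly6d and Ly6e, and 4 lie between Ly6c1 and Ly6f. Members of this cluster arose by duplication, and the likeness of their sequence is shown here by the bases before the starts of the 2 members with an entry in the RefSeq promoter table. The 250 bases before the first listed start of each are printed 5′ to 3′ on the gene's strand, with capitals for runs of 10 or more bases that are identical in both. The Ly6c1 stretch is chr15:75048838-75049087 on the minus strand and the Ly6f stretch is chr15:75268171-75268420 on the plus strand, both in GRCm38.p6.
Ly6c1: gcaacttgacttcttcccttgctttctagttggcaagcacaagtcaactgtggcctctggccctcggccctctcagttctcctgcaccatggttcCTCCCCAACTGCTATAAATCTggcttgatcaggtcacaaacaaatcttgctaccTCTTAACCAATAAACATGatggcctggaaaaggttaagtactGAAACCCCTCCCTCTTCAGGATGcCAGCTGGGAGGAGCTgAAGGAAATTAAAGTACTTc
Ly6f: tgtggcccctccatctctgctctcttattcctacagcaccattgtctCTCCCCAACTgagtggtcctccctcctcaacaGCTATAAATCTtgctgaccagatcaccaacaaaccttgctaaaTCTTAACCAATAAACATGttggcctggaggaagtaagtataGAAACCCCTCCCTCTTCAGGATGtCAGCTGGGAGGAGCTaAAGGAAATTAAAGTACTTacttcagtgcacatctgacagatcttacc
Of 200 aligned positions 169 were identical (84.5%), and the longest identical run was 23 bases. The probe sequences were not used here, so which copies of the cluster each probe can bind was not tested, and the values of Ly6a, Ly6c1, Ly6i and Ly6f are uncertain to that extent. The nuclear receptor half-site AGGTCA was found on either strand 1 time in the Ly6c1 stretch and 0 times in that of Ly6f, and 14.0% of the 32851 windows in the table hold it in their first 250 bases. The STAT element TTCNNNGAA was found in neither, and 7.0% of all windows hold it. A match of letters is a description of the window and not of binding.

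Probe A_51_P197528 was lower in all 5 hypothyroid livers than in any control liver. Its log2 ratio was 0.14 in control 881, -0.03 in control 832, -0.21 in control 522, -0.03 in control 616 and 0.06 in control 391. It was -0.73 in hypothyroid 891, -1.14 in hypothyroid 576, -1.29 in hypothyroid 311, -1.20 in hypothyroid 723 and -1.13 in hypothyroid 626. Control livers thus lay close to the reference level, and the highest hypothyroid value was 0.52 below the lowest control value. The means were -0.01 ± 0.13 (SD, n = 5) and -1.10 ± 0.22 (SD, n = 5), a difference of -1.09 (limma standard error 0.11), which is 2.12-fold lower on the linear scale. This is the difference that chose the probe. Of all probes tested, 1.00% had every hypothyroid value below every control value, and 31 probes had a lower difference than this one.

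The difference lay in the liver channel. There the log2 intensity of the probe was 12.49 ± 0.24 (SD, n = 5) in control and 11.45 ± 0.20 (SD, n = 5) in hypothyroid livers, a difference of -1.04. In the reference channel, which holds the same RNA on every array, the means were 12.51 ± 0.21 and 12.55 ± 0.12, a difference of 0.04. The probe was bright, with liver signals of 1634 to 10608, at least 25.3 times the background limit of the array, and a mean above that of 93.0% of the probes tested. No spot of it was saturated.

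**Figure D1:**
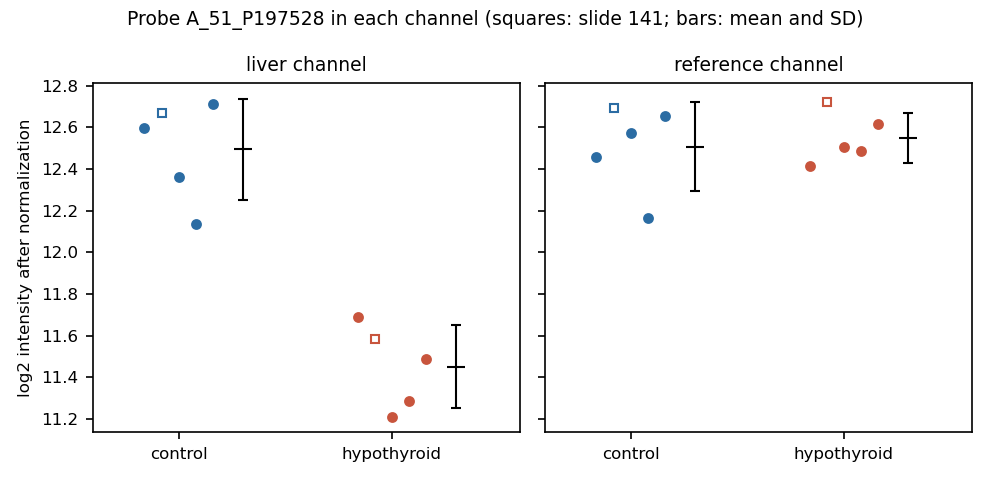
Log2 intensity of probe A_51_P197528 after normalization, in the liver channel and the reference channel, for 5 control and 5 hypothyroid arrays (points, squares for slide 141) with mean and SD. The hypothyroid points lie lower in the liver channel, with means of 12.49 and 11.45, while the reference means are 12.51 and 12.55.

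The size of this difference was much the same on each slide that held both groups. Within slides it was -1.11 on slide 141, -1.10 on slide 100, -1.08 on slide 136 and -0.87 on slide 139, with a mean of -1.04 ± 0.11 (SD, n = 4 slides). Without slide 141 the difference over the remaining arrays was -1.08 (standard error 0.13), and without control 616 it was -1.09. The groups overlapped under 2 other settings, with the dyes as labelled, where the difference was -0.64 (standard error 0.43), and with median centring in place of loess, where it was -0.96 (standard error 0.41).

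The named Ly6 genes did not separate the groups. All 6 had a lower mean in hypothyroid liver, with differences from -0.34 to -0.06, but 53.8% of all probes were lower and 0 of the 6 were free of overlap between groups, against the 1.00% given above. The median difference of the 6 genes was -0.22, beside -0.01 over all probes tested. For 5 of the 6 the difference was smaller than 1 SD of the control livers. Without control 616 the number lower on the mean was 5. These counts include Ly6f, which was not above background on 3 arrays, and support nothing about the family.

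**Figure D2:**
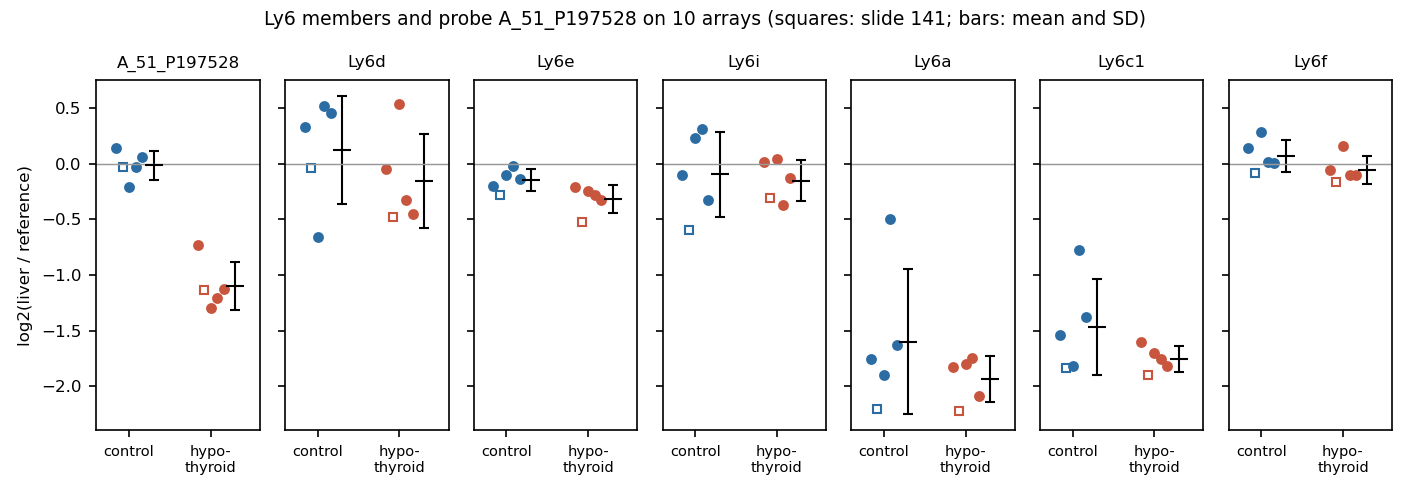
Log2 ratio of liver over reference for probe A_51_P197528 and the 6 Ly6 genes in chromosomal order, 1 point for each of 5 control and 5 hypothyroid arrays (squares for slide 141), with mean and SD. The groups lie apart for A_51_P197528 and overlap for each Ly6 gene, and control 616 is the high control point of Ly6a (-0.50) and Ly6c1 (-0.78).

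Ly6a was well below the reference in every liver. Its log2 ratio was -1.76 in control 881, -2.20 in control 832, -1.90 in control 522, -0.50 in control 616 and -1.63 in control 391. In hypothyroid livers 891, 576, 311, 723 and 626 it was -1.83, -2.22, -1.80, -1.74 and -2.09. Control 616 was far above all the others, which overlapped. The means were -1.60 ± 0.65 and -1.94 ± 0.21 (SD, n = 5 each), a difference of -0.34 (standard error 0.27), and without control 616 the difference was -0.06. The liver channel of control 616, at 8.84, was near those of the other control livers, at 8.45 to 8.82, whereas its reference channel was at 9.33 and those of the others at 10.38 to 10.66.

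Ly6c1 followed the same order of arrays at its ends, with control 616 the highest and hypothyroid 576 the lowest for both genes. Its log2 ratio was -1.54 in control 881, -1.84 in control 832, -1.82 in control 522, -0.78 in control 616 and -1.37 in control 391, and -1.60, -1.90, -1.70, -1.75 and -1.82 in hypothyroid 891, 576, 311, 723 and 626. All 5 hypothyroid livers were below the control mean, but only hypothyroid 576 was below every control. The means were -1.47 ± 0.43 and -1.75 ± 0.12 (SD, n = 5 each), a difference of -0.28 (standard error 0.18) that was -0.11 without control 616. The probe was dim, at liver signals of 69.5 to 255.5 and 1.55 to 2.69 times the background limit.

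Ly6e, an interferon-inducible member found on many cell types, had the smallest pooled spread of the members. Its log2 ratio was -0.20 in control 881, -0.28 in control 832, -0.10 in control 522, -0.02 in control 616 and -0.13 in control 391. It was -0.20 in hypothyroid 891, -0.52 in hypothyroid 576, -0.24 in hypothyroid 311, -0.28 in hypothyroid 723 and -0.33 in hypothyroid 626. All 5 hypothyroid livers were below the control mean and 3 were below every control, and the overlap came from control 832, the lowest control. The means were -0.14 ± 0.10 and -0.32 ± 0.12 (SD, n = 5 each), a difference of -0.17 (standard error 0.08). It was the 1 named gene whose difference exceeded 1 control SD, but with median centring in place of loess the difference was 0.02. Its liver signals of 1422 to 3979 placed it above 90.0% of the probes tested, so it was measured at a brightness near that of A_51_P197528.

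Ly6d, an antigen of early B cells and of stratified epithelia, had the widest spread of the members among hypothyroid livers. It was 0.34 in control 881, -0.03 in control 832, -0.66 in control 522, 0.52 in control 616 and 0.46 in control 391, and -0.05, -0.48, 0.54, -0.33 and -0.45 in hypothyroid 891, 576, 311, 723 and 626. The highest value of all was in a hypothyroid liver and the lowest in a control liver, both on slide 136. The means were 0.13 ± 0.49 and -0.15 ± 0.42 (SD, n = 5 each), a difference of -0.28 (standard error 0.25).

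Ly6i and Ly6f are less studied members of the cluster. For Ly6i the log2 ratio was -0.10, -0.59, 0.23, 0.31 and -0.33 in control 881, 832, 522, 616 and 391, and 0.01, -0.31, 0.05, -0.37 and -0.13 in hypothyroid 891, 576, 311, 723 and 626. The hypothyroid values lay wholly within the control range, and the difference was -0.06 (standard error 0.17), or 0.05 without control 616. For Ly6f it was 0.14, -0.09, 0.29, 0.02 and 0.01 in the same controls and -0.05, -0.17, 0.16, -0.10 and -0.10 in the same hypothyroid livers. The groups overlapped, and the difference was -0.13 (standard error 0.09). Ly6f was the dimmest member, with liver signals of 41 to 176.5, and was above the background limit on 4 control but only 3 hypothyroid arrays. It thus met the filter through the control group alone, and its values in control 616, hypothyroid 576 and hypothyroid 723 were not above background.

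The spread between livers of 1 group differed among the members. Pooled over both groups the SD was 0.48 for Ly6a and 0.46 for Ly6d, above those of 96.2% and 95.4% of all probes tested. It was 0.32 for Ly6c1 and 0.30 for Ly6i, and 0.13 for Ly6f and 0.11 for Ly6e, while the median over all probes was 0.16. For A_51_P197528 it was 0.18, above 57.0% of probes. The difference of A_51_P197528 was -6.06 pooled SDs, and those of the named genes ran from -1.54 for Ly6e to -0.19 for Ly6i.

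Within slides the named genes varied in sign or in size. Ly6f was lower in the hypothyroid liver on each of the 4 slides, with differences of -0.19 to -0.08 that rest in part on arrays where it was not above background, and so was Ly6e, with -0.31 to -0.01. Ly6a and Ly6c1 were at -1.59 and -1.04 on slide 100, which holds control 616, and between -0.07 and 0.12 on the other 3 slides. Ly6d ranged from -0.97 to 1.19 and Ly6i from -0.44 to 0.28.

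**Figure D3:**
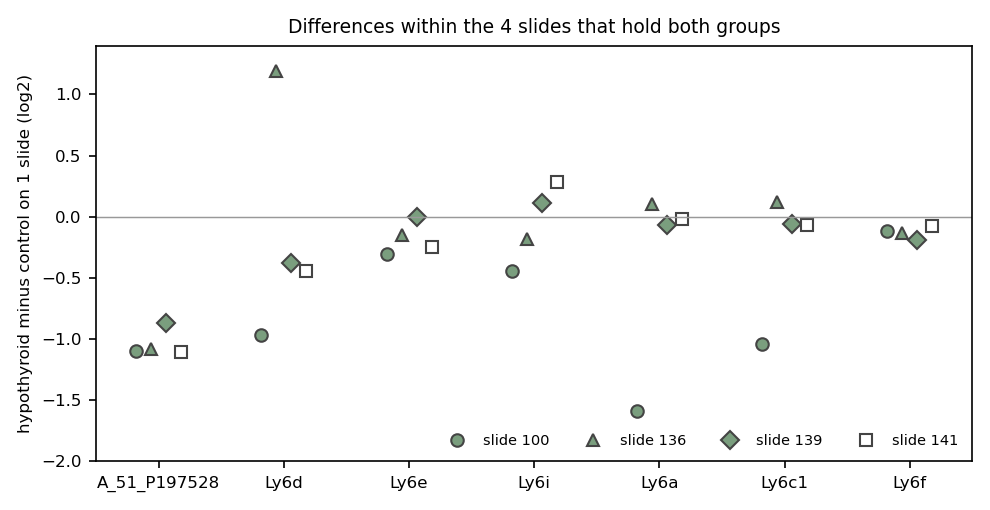
Difference of hypothyroid minus control log2 ratio on each of the 4 slides with both groups (1 symbol for each slide, open squares for slide 141) for A_51_P197528 and the Ly6 genes. The 4 values of A_51_P197528 lie between -1.11 and -0.87, and those of Ly6a and Ly6c1 are far from 0 only on slide 100.

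Liver against reference is a contrast that the choice of the 6 named genes did not use. By limma over all 10 arrays, 3 of the 6 were lower in liver at an adjusted p below 0.05 and none was higher, while 37.2% of all probes tested were lower and 41.8% higher. Ly6a was lower by 3.41-fold (log2 -1.77, standard error 0.13, adjusted p = 1.96e-07) and Ly6c1 by 3.06-fold (log2 -1.61, standard error 0.09, adjusted p = 1.55e-08), both on 10 of 10 arrays. Ly6e was lower by 1.17-fold (log2 -0.23, standard error 0.04, adjusted p = 1.88e-04) on 10 of 10 arrays.
Ly6d (adjusted p = 0.93), Ly6f (0.83) and Ly6i (0.20) did not pass, with log2 ratios of -0.01, 0.01 and -0.12 and limma standard errors of 0.13, 0.04 and 0.08. For A_51_P197528 the mean over both groups, a log2 ratio of -0.56, holds the hypothyroid values that chose it, so it is given with no test, and its control livers lay at the reference level. The reference is 1 pool, so its own spread is not in these tests. With the dyes as labelled none of the named genes passed, since the 2 arrays of slide 141 then oppose the other 8, and without that slide the 3 passed.

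The named genes nearest in pattern to A_51_P197528 over the 10 arrays were not among the listed Ly6 genes. Likeness was measured as the root mean square distance between log2 ratios, each centred on its own mean, over 10 arrays, and the probe's own root mean square about its mean was 0.57. The nearest named gene was Nudt7, which encodes a peroxisomal coenzyme A hydrolase, at a distance of 0.16, followed by Mgp, which encodes matrix Gla protein, an inhibitor of calcification, at 0.19. Cpne2 followed at 0.24, Sned1 at 0.24 and Higd1a, a mitochondrial protein gene induced by hypoxia, at 0.27. The differences between groups were -0.96 for Nudt7, -1.04 for Mgp, -0.74 for Cpne2, -0.79 for Sned1 and -0.61 for Higd1a. These genes were found by their likeness to a probe chosen for its difference, so their differences are descriptions too. Among 32052 other probes Ly6e ranked 1798 and Ly6c1 1916 in nearness to A_51_P197528, Ly6f 5666, Ly6d 12937, Ly6a 17478 and Ly6i 21217. Much of the probe's pattern is the difference that chose it, so these ranks are descriptions and support nothing about the family.

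**Figure D4:**
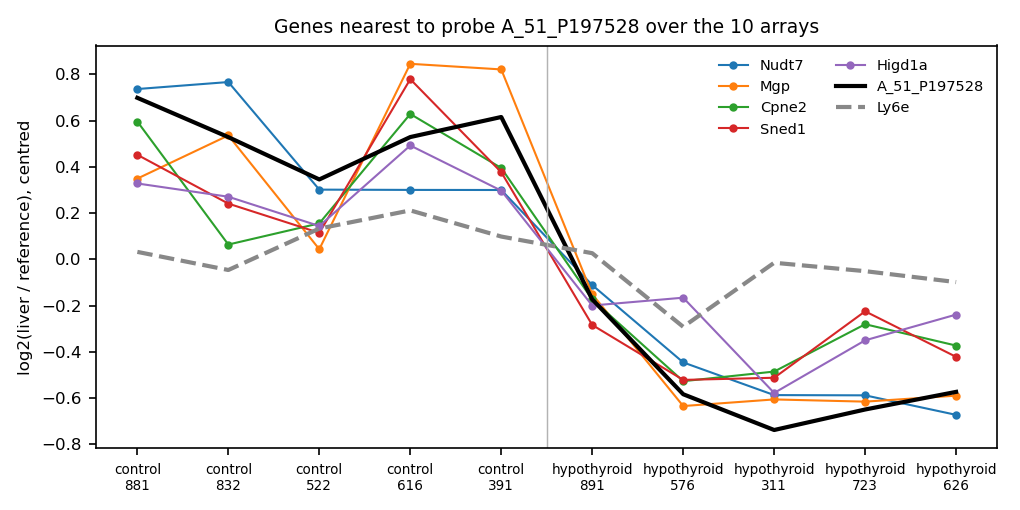
Log2 ratio of liver over reference, centred on the mean of each gene, on the 5 control and 5 hypothyroid arrays for A_51_P197528 (black), the 5 nearest named genes and Ly6e (dashed). The 5 genes step down between the groups with the probe, by -1.04 to -0.61, while Ly6e differs by -0.17.

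The rest of the Ly6/uPAR family was compared between groups as well. Of 36 further genes listed, 24 were tested, and none reached an unadjusted p below 0.05 by limma in either direction, where 4.07% of all probes did as lower and 3.34% as higher. With 24 genes, few would do so at those shares. Several probes were dim, such as Lypd1 and Lypd8 at log2 intensities of 6.17 and 6.20 in the liver channel, so a shift could be missed. On the mean 12 were higher and 12 lower, and the median difference was -0.0024 beside -0.01 over all probes. Lynx1, a modulator of acetylcholine receptors, differed by -0.36 (standard error 0.19, adjusted p = 0.71) and Cd59a, which blocks the terminal complement complex, by 0.34 (standard error 0.21, adjusted p = 0.73). Plaur, the urokinase receptor, differed by -0.20 (standard error 0.20, adjusted p = 0.81) and Gpihbp1, which carries lipoprotein lipase across endothelium, by -0.18 (standard error 0.15, adjusted p = 0.78). Relative to the reference 15 of the 24 were higher in liver and 5 lower at an adjusted p below 0.05 by limma. Of all probes tested, 41.8% were higher and 37.2% lower. The median log2 ratio of the list was 0.13, and only 2 genes were above the reference by more than 2-fold. Gpihbp1 was higher, at a log2 ratio of 3.23, and so was Cd59a, at 2.86. Ly6c2 and Ly6g, of the same family, were not analysed here.

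Interferon-induced genes were examined because Ly6a, Ly6c1 and Ly6e are known to respond to interferon. Of 29 tested, 5 had an unadjusted p below 0.05 by limma as lower in hypothyroid liver (17.2%, against 4.07% of all probes) and 0 as higher, and 0 passed after adjustment, where 0.00624% of all probes did. On the mean 21 were lower and 8 higher, with a median difference of -0.18. Lower without overlap between groups were 2 of the 29, where 1.00% of all probes were. Gbp3, a guanylate-binding protein gene and 1 of these 2, differed by -0.85 (standard error 0.19, adjusted p = 0.27). Ifi27l2a differed by -0.55 (adjusted p = 0.65), Ifit1, which binds viral RNA, by -0.51 (adjusted p = 0.64), and Ifih1, a sensor of double-stranded RNA, by -0.48 (adjusted p = 0.54). The mean level of the list ran from 0.36 to 0.67 in control and from 0.28 to 0.50 in hypothyroid livers, which overlapped through hypothyroid 626. The number at an unadjusted p below 0.05 was 3 without slide 141, 0 with the dyes as labelled, and 11 with slide as a fixed block. Of all probes, 2387, 110 and 2235 had such a p in these settings, against 2376 in the main one.

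Genes that build and attach the GPI anchor were examined because Ly6 proteins carry it. Of 24 tested, 3 had an unadjusted p below 0.05 as lower (12.5%, against 4.07% of all probes) and 0 as higher by limma, and 0 passed after adjustment. Piga, which acts in the first step of anchor synthesis, differed by -0.30 (standard error 0.11, adjusted p = 0.62), Pigc, of the same complex, by -0.26 (standard error 0.09, adjusted p = 0.59), and Pigw, which acylates the anchor's inositol, by -0.24 (standard error 0.08, adjusted p = 0.51). Gpld1, which encodes a circulating phospholipase that cleaves GPI anchors, differed by 0.62 (standard error 0.47, adjusted p = 0.77). The median difference of the list was -0.04, and with the dyes as labelled 0 genes had an unadjusted p below 0.05.

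Markers of the cells that can carry Ly6 antigens were compared in the same way, and their part in the differences of the members was not tested. None of 14 endothelial, 10 Kupffer cell and macrophage, 8 monocyte, 10 neutrophil, 8 T and NK cell or 6 B cell markers had an unadjusted p below 0.05 by limma. At that threshold 4.07% of all probes were lower and 3.34% higher, so few of these genes would be counted at those shares. Some were dim, such as Ccr2 and Cxcr2 at log2 intensities of 6.46 and 6.21 in the liver channel. The median difference was 0.02 for endothelial, 0.11 for Kupffer cell and macrophage, -0.02 for monocyte, 0.33 for neutrophil, 0.04 for T and NK cell and 0.04 for B cell markers. All 10 neutrophil markers were higher on the mean in hypothyroid liver, with list means of 1.43 to 2.62 against 1.04 to 2.22 in control livers, and the mean difference of 0.32 was 0.17 without control 616, the lowest of them. Of the brightest markers, the endothelial Clec4g differed by -0.05 and Egfl7 by 0.28, the Kupffer cell Cd5l by 0.20 and Marco by 0.20, the monocyte S100a4 by -0.78 and Plac8 by -0.29, and the neutrophil S100a9 by 0.34 and Camp by 0.33. For S100a4 the standard error was 0.80, and the mean difference of the monocyte list was -0.09, or 0.07 without control 616. Cd3e of T cells differed by 0.04, Zap70 by 0.15, Cd79b of B cells by -0.13 and Ms4a1 by -0.22.

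In the other marker lists no gene passed after adjustment by limma, and counts at an unadjusted p below 0.05 stand beside the 4.07% of all probes that were lower and the 3.34% that were higher. All 11 pancreatic acinar markers tested had such a p as lower in hypothyroid liver, with a median difference of -1.98, and for the brightest, Ctrb1 and Cel, it was -0.60 and -1.86. Their mean level was 4.03 in control 832, 4.13 in control 522 and 2.56 in control 616, but 0.19 in control 881 and 0.18 in control 391, which lay within the hypothyroid range of 0.14 to 0.24. In those 2 control livers A_51_P197528 read 0.14 and 0.06, above its value in the other 3 controls. Every control lay above every hypothyroid liver for this probe, so any subset of controls would too. A link between the probe and the acinar level was not tested. All 8 hepatocyte markers were higher on the mean in hypothyroid liver, 2 of them at an unadjusted p below 0.05, with list means of 2.71 to 4.75 in control and 4.21 to 4.77 in hypothyroid livers. Control 616 had the lowest of these, and without it the mean difference of the list was 0.25 in place of 0.57.
Of the remaining lists, 1 of 9 erythroid and progenitor markers and 1 of 6 stellate cell markers (Reln, 0.36) were higher and 2 of 7 skeletal muscle markers lower at that threshold, and 0 of 5 biliary markers in either direction. Hba-a1 and Alas2 differed by 0.54 and 0.25, the biliary Spp1 and Krt19 by -0.90 and -0.61, Col1a1 by -0.80, and Tnnc2 and Acta1 by -0.30 and -0.63. The mean difference of the biliary list was -0.43, and -0.12 without control 616.

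**Figure D5:**
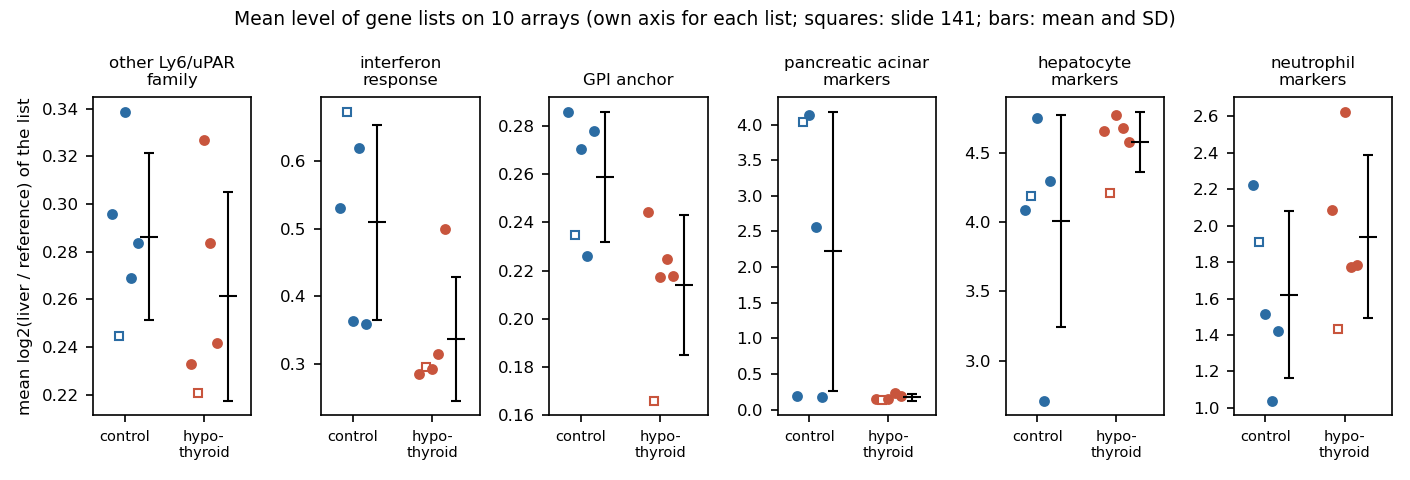
Mean log2 ratio of liver over reference of 6 gene lists on 5 control and 5 hypothyroid arrays (points, squares for slide 141) with mean and SD, each list on an axis of its own. The other Ly6/uPAR genes overlap between groups, and the acinar list is high in only 3 of the 5 control livers (2.56 to 4.13).

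The state of the animals was read from 9 genes known to respond to thyroid hormone in liver. Of these 5 were lower in hypothyroid liver at an unadjusted p below 0.05 and 0 were higher, where 4.07% and 3.34% of all probes were, and none passed after adjustment by limma. On the mean 7 were lower and 2 higher. The mean level of the list was 0.415 in control 616, within the hypothyroid range of 0.307 to 0.422, and 0.74 to 0.84 in the other controls. Thrsp, a regulator of fat synthesis, differed by -1.16 (standard error 0.30, adjusted p = 0.35), Dio1, a deiodinase, by -0.94 (standard error 0.34, adjusted p = 0.60), Gpd2, a mitochondrial glycerol phosphate dehydrogenase, by -0.60 (standard error 0.20, adjusted p = 0.54), and Me1, the malic enzyme, by -0.48 (standard error 0.11, adjusted p = 0.27).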

How the data were processed

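Arrays of 10 livers were analysed, and 8 miRNA samples of the series were not used here. Per spot and channel, the authors deposited a median intensity read by Agilent Feature Extraction 10.1.1.1 and a processed intensity from the same software. Groups and animals were taken from the labels. Median intensities were corrected by normexp (offset 50) and loess (span 0.2), and spots of a probe were averaged. The background limit of an array was set from its negative control spots, as their mean after 5% trimming and 3 SDs trimmed alike. Probes above it on at least 4 of 5 arrays of a group were tested with limma 3.58.1 in R 4.3.3, with Benjamini-Hochberg adjustment. The channels of slide 141 were exchanged by a rule on correlations below -0.3, which uses no groups. Symbols came by accession from a RefSeq table of GRCm38.p6 (23374 of 41174 probes), with the brightest probe for a gene in a list.

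The members and lists were chosen with earlier results of these data known. The genes named are all members, the 4 largest differences of each list of family, interferon, GPI anchor and thyroid hormone genes, with those under an unadjusted p of 0.05 first, the 5 genes nearest to A_51_P197528, and the 2 brightest of each marker list. Channel values were scaled with Aquantile. Promoters were aligned with Biopython 1.88. Alternatives were the dyes as labelled, other background correction, normalization, filters and probe averaging, slide as a block (statmod 1.5.0), and each array left out. The programs were tested on simulated data. The number of arrays limits the precision.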

Additional observations from a re-analysis of the deposited data

Results flagged for a closer look

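Of 46 groups of 5 arrays examined for an array far from the others, over the members and the lists, 4 had one (8.70%), where chance gives about 5%, and none of the 4 was a Ly6 gene or A_51_P197528. Divided by the range of its group, the gap between such an array and its nearest neighbour was 0.857 for the interferon list in hypothyroid liver, where hypothyroid 626 had a mean level of 0.50 and the others 0.28 to 0.32. It was 0.766 for the thyroid hormone response list in control liver, where control 616 was at 0.42 and the others at 0.74 to 0.84, and 0.756 for the same list in hypothyroid liver, where hypothyroid 576 was at 0.42 and the others at 0.31 to 0.34. It was 0.752 for the biliary list in control liver, where control 616 was at -0.63 and the others at -2.33 to -1.91. Control 616 accounts for 2 of the 4.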

How the results depend on the processing

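The difference of A_51_P197528 was negative under each of 22 alternatives, from -1.20 to -0.64, and the last, with the dyes as labelled, was the 1 that moved by more than the spread between livers. With the dyes as labelled, 0 member probes were lower without overlap, 0 probes were called between groups, 0 of the 7 probes were called against the reference, and 0 interferon and 0 GPI anchor genes had an unadjusted p below 0.05. With the main settings these were 1, 2, 4, 5 and 3. The 1 is A_51_P197528, which is also 1 of the 4. It was chosen for its difference, so its part in these counts supports nothing. For the 6 named genes the counts were 0 without overlap and 3 called against the reference. Without slide 141 the counts, in the order given above, were 2, 0, 4, 3 and 2, and the first 2 and the 4 again include A_51_P197528. The processed intensities gave 1 probe called and 0 GPI anchor genes, and median centring gave 0 members without overlap, 1 probe called, 0 interferon and 0 GPI anchor genes. With slide as a fixed block 0 probes were called, as a random block 14, and over only the 4 slides with both groups 0. Interferon genes at an unadjusted p below 0.05 numbered 11, 8 and 8 in these settings. Of all probes, 2235, 3158 and 1859 had such a p, against 2376 with the main settings. Without slide 141 and control 616, a setting chosen after seeing the data, 2 members were without overlap, A_51_P197528 among them, and 1 probe was called. There 2 other Ly6/uPAR genes had an unadjusted p below 0.05, against 0 as reported, and 2362 of all probes had such a p. With fewer arrays groups lie apart more often, and the share of all probes without overlap was not counted for such settings.

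Leaving out each array in turn gave 1 to 2 members without overlap, A_51_P197528 each time and Ly6e as well without control 832. The share of all probes without overlap was not counted for these settings. It gave 1 to 30 probes called (30 without control 616, 6 without hypothyroid 723). At an unadjusted p below 0.05 there were 0 to 1 other Ly6/uPAR genes and 3 to 8 interferon genes (3 without hypothyroid 311, 8 without hypothyroid 626). Of all probes, 1689 to 3023 had such a p. The processed intensities gave a difference of -0.54 for Ly6f, a dim probe, and that of Ly6i was negative under 19 of 22 alternatives, from -0.18 to 0.11. The cause was not tested for any of these. No paired analysis was possible because the labels give the arrays of the 2 groups different animal numbers, and arrays were paired only by slide, as given above. Signals of Ly6f were not above background on 3 arrays, which limits its values.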
